A study of Mus musculus with 24 samples.

Results

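The genes described here are 9 transcription factors of the Klf and Nr4a families, namely Klf2, Klf3, Klf4, Klf6, Klf10, Klf13, Nr4a1, Nr4a2 and Nr4a3. They were taken by gene name from a table of 56748 genes, and 9 of the 9 passed the filter on low counts. RNA had been sequenced from stem and progenitor cells sorted from the bone marrow of mice, although the labels give blood as the tissue, in 24 libraries that form 8 groups of 3. The groups are the haematopoietic stem cell (HSC) population and the multipotent progenitor (MPP) populations labelled MPP1, MPP2 and MPP4, each from animals labelled wild type (WT) and knockout (KO). All groups, WT included, carry the treatment label tamoxifen. The gene knocked out, the Cre driver, the strain, the age and the sex of the mice, the sort gates and the animals behind each library are not given in the sources used here. P-values therefore set differences between groups only against the spread between libraries of a group, which may be technical.

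Klf proteins bind GC-rich and CACCC sequences through a shared set of zinc fingers and act as activators or repressors, and several hold blood cells in a resting state or steer their maturation. Nr4a proteins are nuclear receptors that work without a known natural ligand, and their amount is set mainly by rapid, short-lived transcription after signals such as cAMP and calcium. In the blood of mice, Nr4a1 and Nr4a3 are known to restrain the growth of stem and myeloid cells. The Nr4a genes, like Fos, Jun and Egr1, are classed as immediate early genes, whose unstable transcripts rise without new protein synthesis.

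Total counts ran from 2540511 to 3807003 per library. Ddx6, an RNA helicase that general knowledge of the study, not any label, gives as the target, had a log2 fold change of KO over WT of 0.11 ± 0.18 (SE, 3 libraries against 3) in MPP2, 0.29 ± 0.19 in HSC and in MPP4, and 0.61 ± 0.18 in MPP1. Its RNA was thus not lower in the KO-labelled libraries, and whether the counted part of the gene lies in a deleted segment was not tested, so the libraries are called KO-labelled throughout. The labels MPP2 and MPP4 went against some marker genes. Flt3 is a cytokine receptor of lymphoid-primed progenitors. It was at 1080 to 1182 CPM (counts scaled to a common library total) in WT MPP2-labelled libraries and 54.5 to 81.0 in WT MPP4-labelled ones. Dntt, a lymphoid DNA polymerase, was at 556 to 586 CPM against 13.4 to 24.3. The list of 6 lymphoid-primed markers was split. Ighm, at 862 to 996 CPM against 1188 to 1453, and Ccr9, at 5.47 to 6.86 against 12.3 to 23.3, went the other way. The summed level of 7 megakaryocyte and erythroid markers was 124 to 132 CPM in WT MPP2-labelled libraries and 632 to 699 in WT MPP4-labelled ones. Olfactory and vomeronasal receptor genes, which blood cells do not use, had counts in every library. From their count per kb of gene span, background was expected to make up 19.6 ± 1.30% (SD, n = 3) of all counts in WT HSC and 4.37 ± 0.169% in KO-labelled HSC. In the other populations the expected shares were 9.94 to 26.6% in WT and 7.64 to 15.3% in KO-labelled groups, as group means. Results are therefore given as deposited and after that background had been subtracted.

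Nr4a1 and Klf6 were lower in KO-labelled than in WT libraries in all 4 populations, and no member was called higher. Nr4a2 was called lower in all 4, and Nr4a3 in HSC, MPP1 and MPP4-labelled cells. By edgeR on the deposited counts, Klf2 was called lower in MPP2-labelled cells and in the average over populations, and Klf4 in the average but in no single population. Klf3, Klf10 and Klf13 were not called in any KO-labelled against WT comparison of the deposited counts.

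In HSC, 4 of the 9 members were called lower at an adjusted p below 0.05 (quasi-likelihood test of edgeR, adjusted by Benjamini-Hochberg over 21964 genes) and 0 higher. The background rate there was high: 24.8% of all tested genes were called lower and 18.3% higher. In MPP1, 4 members were called lower against 4.9% of all genes, and 0 higher against 8.71%. In MPP2-labelled cells, 4 were called lower against 4.17% of all genes, and 0 higher against 3.73%. In MPP4-labelled cells, 4 were called lower against 6.47% of all genes, and 0 higher against 11.4%. In the average over the 4 populations, 6 members were called lower against 30.3% of all genes, and 0 higher against 22.9%. For the higher direction, DESeq2 and limma-voom also called 0 members in each of these 5 comparisons, and the only member past an unadjusted p of 0.05 was Klf13 in MPP2-labelled cells. After background subtraction the members called lower were 2 in HSC (4.4% of all genes), 3 in MPP1 (2.86%), 2 in MPP2-labelled cells (2.88%) and 3 in MPP4-labelled cells (2.99%). The share of all genes whose WT and KO-labelled libraries do not overlap is not given here. Statements below that groups did not overlap therefore describe single genes and do not show that such separation is unusual.

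**Figure D1:**
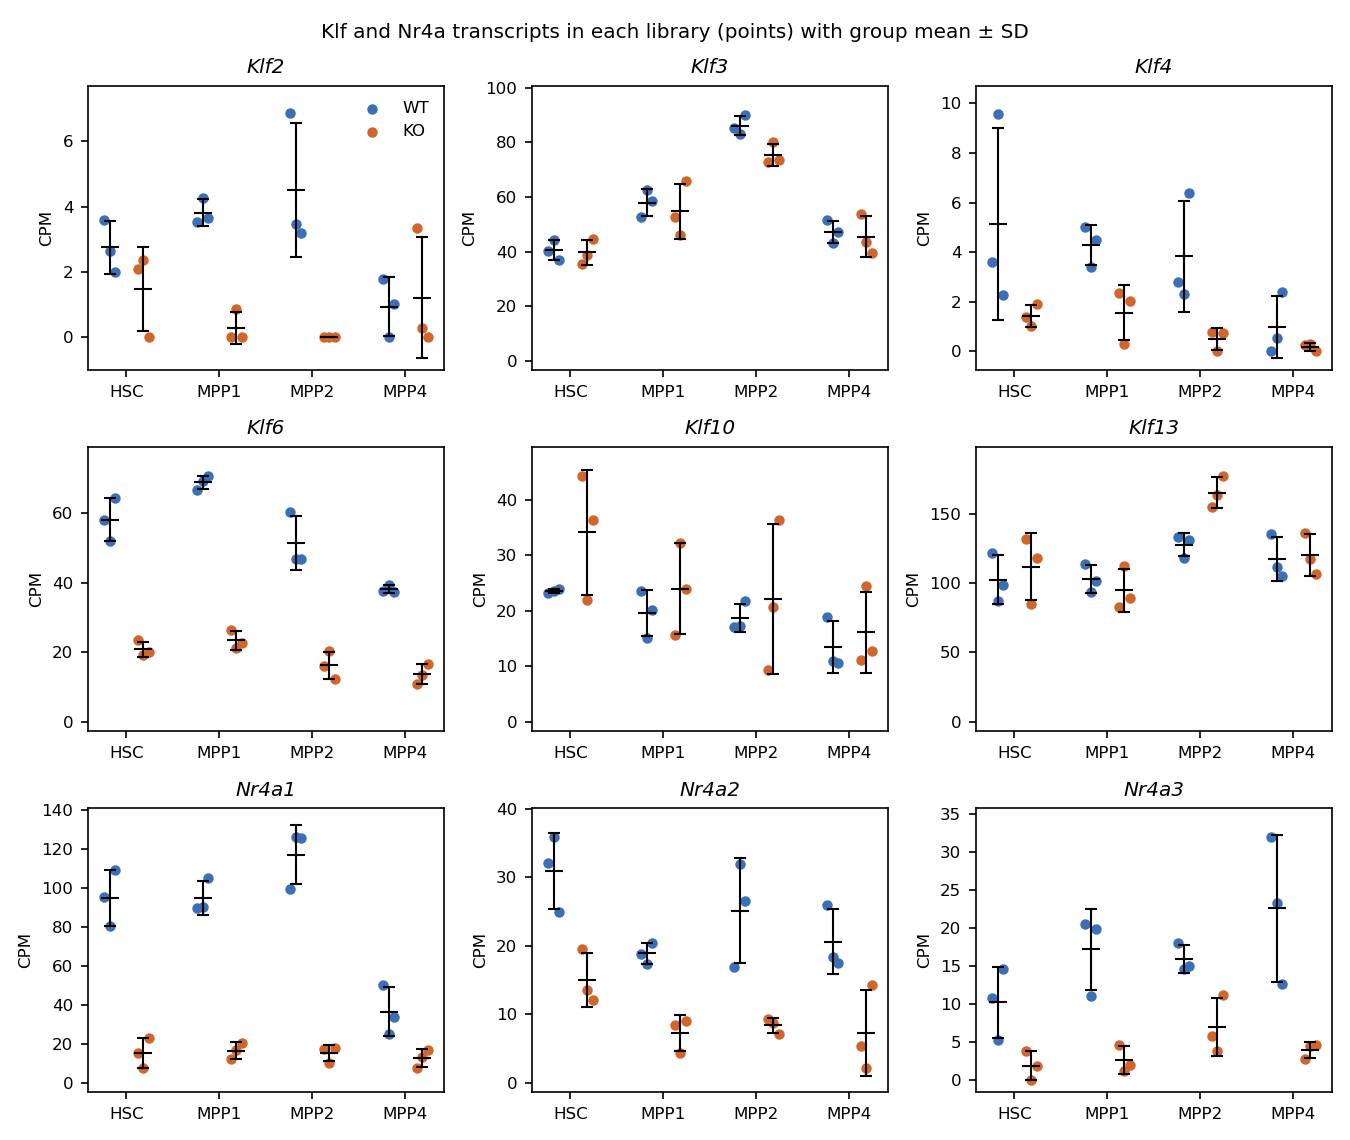
Level of each of the 9 genes in CPM (vertical axis) in the 24 libraries by labelled population, with WT in blue and KO-labelled in orange; points are libraries, and bars are group mean ± SD (n = 3). For Nr4a1, Nr4a2, Nr4a3 and Klf6 the 3 WT points lie above the 3 KO-labelled points in each of the 4 populations.

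Nr4a1 (ENSMUSG00000023034.8) encodes the family member best known from activated lymphocytes. It had 303 to 382 counts in WT HSC and 22 to 73 in KO-labelled HSC, or 95.0, 80.4 and 109 CPM against 15.3, 7.43 and 23.1 CPM. In MPP1 the libraries stood at 89.7, 90.1 and 105 CPM in WT and 12.03, 16.9 and 20.5 CPM in KO-labelled cells. The groups were far apart in both populations, with the lowest WT library more than 3 times the highest KO-labelled one. In MPP2-labelled cells WT libraries had 99.5, 126 and 126 CPM and KO-labelled ones 17.1, 10.3 and 17.6 CPM. MPP4-labelled cells began from a lower WT level, 49.9, 25.2 and 33.8 CPM, against 7.53, 13.2 and 16.7 CPM. The KO-labelled level was thus similar across populations, with group means of 12.5 to 16.5 CPM, while the WT group means ran from 36.3 to 117 CPM. Nr4a1 fell by 2.63 ± 0.30 on the log2 scale in HSC (6.17-fold, adjusted p = 2.9e-09) and by 2.52 ± 0.30 in MPP1 (5.73-fold, adjusted p = 2.3e-08). It fell by 2.97 ± 0.31 in MPP2-labelled cells (7.83-fold, adjusted p = 9.4e-10). In MPP4-labelled cells it fell by 1.54 ± 0.31 (2.92-fold, adjusted p = 0.00025). Background was expected to give 1.74 to 11.8% of its counts in the WT groups and 6.84 to 23.1% in the KO-labelled groups. After subtraction the 4 calls held, with log2 changes of -3.21, -3.03, -3.26 and -2.16 in the same order.

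Nr4a2 (ENSMUSG00000026826.14), the member required for dopamine neurons, had smaller estimated falls. WT HSC libraries had 32.1, 35.8 and 24.9 CPM and KO-labelled ones 19.5, 13.5 and 12 CPM, a log2 change of -1.04 ± 0.43 (adjusted p = 0.049). In MPP1 the levels were 18.8, 17.4 and 20.4 CPM against 8.36, 4.31 and 9.06 CPM. Groups did not overlap in either population, although the distance between the nearest libraries in HSC was small. In MPP2-labelled cells WT libraries had 16.8, 32.0 and 26.5 CPM and KO-labelled libraries 9.31, 8.70 and 7.12 CPM. In MPP4-labelled cells they had 26.0, 18.3 and 17.4 CPM against 5.30, 2.10 and 14.2 CPM. The third KO-labelled MPP4 library stood close to the lower WT libraries. The log2 changes were -1.38 ± 0.45 in MPP1 (adjusted p = 0.035), -1.58 ± 0.45 in MPP2-labelled cells (0.022) and -1.52 ± 0.45 in MPP4-labelled cells (0.015). All 4 calls were lost after background subtraction (adjusted p from 0.0754 to 0.177) although the estimates were larger there, from -1.55 to -2.20. Leaving out single libraries also ended the call in each population. In HSC this held for WT replicates 1, 2 and 3 and KO-labelled replicates 2 and 3 (adjusted p from 0.0529 to 0.152), and in MPP1 for each of the 6 libraries (0.0528 to 0.186). In MPP2-labelled cells it held for replicates 2 and 3 of both genotypes (0.0596 to 0.122), and in MPP4-labelled cells for WT replicate 1 and KO-labelled replicates 1 and 2 (0.0725 to 0.117). The call was also lost in HSC with no filter on low counts (0.0826) and in MPP4-labelled cells in a fit of only the libraries compared (0.0849). In the average over populations the log2 change was -1.38 ± 0.22 (adjusted p = 2.4e-06), and it remained called after subtraction (adjusted p = 0.0005).

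Nr4a3 (ENSMUSG00000028341.10), which acts partly in place of Nr4a1 in blood cells, had, of the 9 members, the largest share of its WT HSC count expected from background, with few counts over a gene span of 41.3 kb. WT HSC libraries had 39, 20 and 51 counts and KO-labelled ones 11, 0 and 6, where background alone was expected to give 66.8% of the summed WT count. In MPP1 the counts were 70, 39 and 71 against 14, 4 and 7. In both KO-labelled groups the summed count was below the one expected from background, at 17 against 19.1 in HSC and 25 against 45.8 in MPP1. Transcript in these groups could thus not be told from background at this depth. The expectation exceeded all that was counted, so it was too high for Nr4a3 at least in KO-labelled MPP1. Background shares and subtracted fits of this gene are therefore rough. MPP4-labelled WT libraries had 107, 85 and 37 counts and KO-labelled ones 10, 15 and 15, again below the expected background. In MPP2-labelled cells the counts were 58, 51 and 47 against 15, 12 and 30, with background expected to give 50.6% of the KO-labelled sum. That population is the one where the KO-labelled cells kept counts above background, and the one where Nr4a3 was not called (log2 change -1.19 ± 0.60, adjusted p = 0.25). As deposited, the log2 changes were -2.40 ± 0.67 in HSC (adjusted p = 0.004), -2.71 ± 0.65 in MPP1 (0.0025) and -2.50 ± 0.63 in MPP4-labelled cells (0.0033). After subtraction the call was lost in HSC (adjusted p = 0.188) and held in MPP1 (0.0158) and in MPP4-labelled cells (0.0102). The mean WT level left after subtraction was 3.76 ± 3.71 CPM in HSC, 10.01 ± 5.53 in MPP1 and 14.1 ± 9.77 in MPP4-labelled cells.

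**Figure D2:**
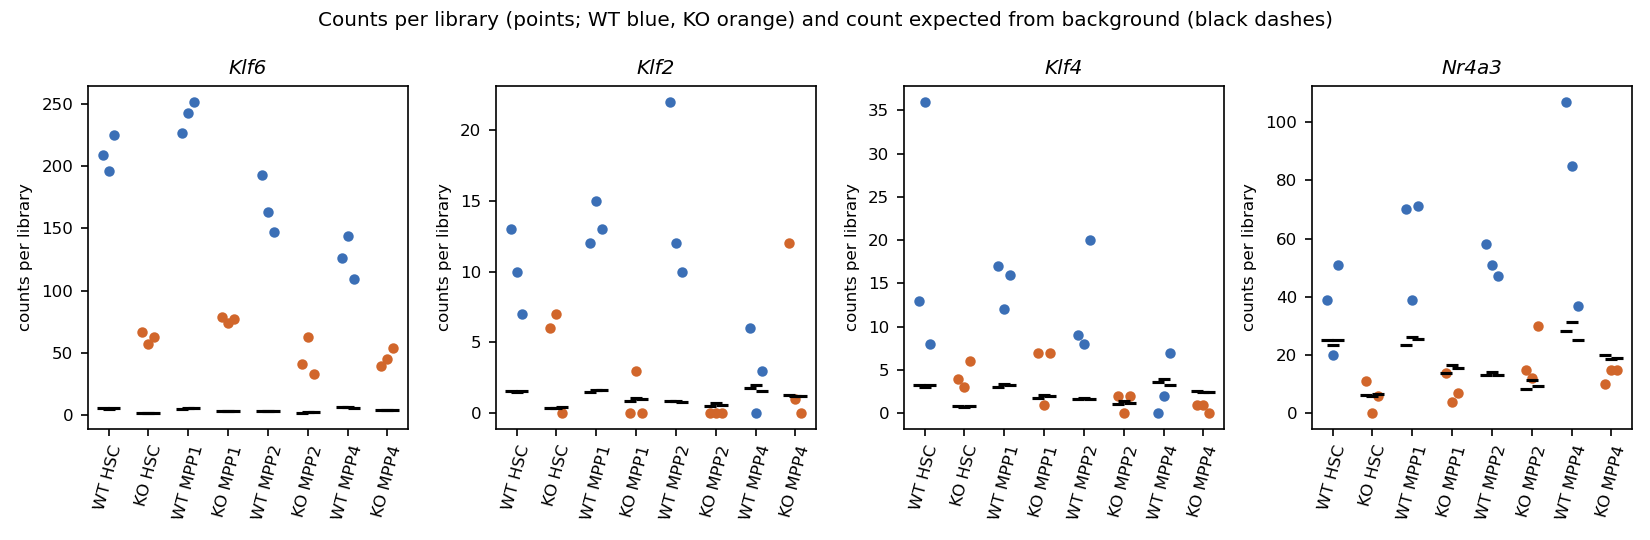
Counts per library (vertical axis, linear, a separate scale for each gene) of Klf6, Klf2, Klf4 and Nr4a3 in the 8 groups, WT in blue and KO-labelled in orange, with the count expected from background in the same library as a black dash. Klf6 stands far above its dashes in every library, whereas the Nr4a3 points of KO-labelled HSC, MPP1 and MPP4 lie at or below theirs, apart from 1 HSC library.

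Summed over the 3 Nr4a genes, the level was 136 ± 13.7 CPM (SD, n = 3) in WT HSC and 32.2 ± 9.78 in KO-labelled HSC. It was 131 ± 13.4 against 26.3 ± 4.72 in MPP1, 158 ± 20.5 against 30.4 ± 6.75 in MPP2-labelled cells and 79.5 ± 24.6 against 23.6 ± 10.5 in MPP4-labelled cells. WT and KO-labelled sums did not overlap in any of the 4. Per kb of exon, the scale on which genes can be compared, Nr4a1 made up 74.1 ± 4.12% of the family sum in WT HSC, 78.3 ± 2.35% in WT MPP1 and 79.1 ± 1.27% in WT MPP2-labelled cells. In WT MPP4-labelled cells its share was 53.6 ± 7.08%, with 26.8 ± 2.17% from Nr4a2 and 19.6 ± 5.96% from Nr4a3. In KO-labelled HSC the Nr4a1 share was 50.0 ± 14.7% and the Nr4a2 share 46.7 ± 15.7%, so these genes stood level in that group. KO-labelled shares of Nr4a1 elsewhere were 67.8 ± 12.4% in MPP1, 60.7 ± 12.2% in MPP4-labelled and 56.4 ± 4.49% in MPP2-labelled cells. Counts include background and may include reads from introns, so these shares are not shares of finished mRNA. Differences between them were not tested.

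**Figure D3:**
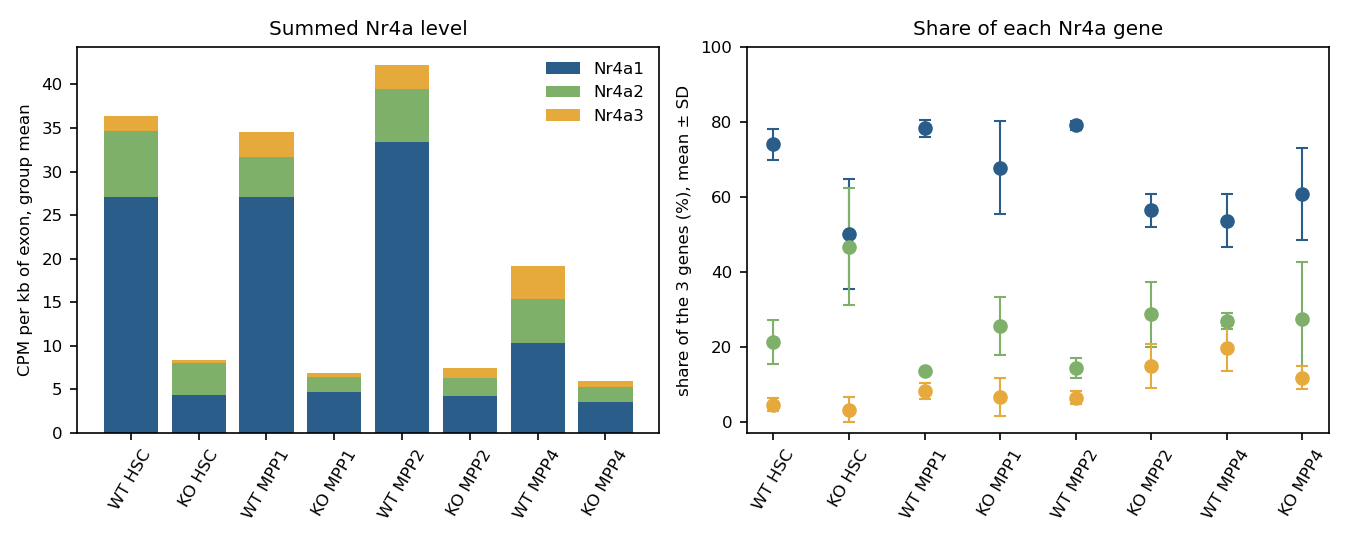
Left, stacked bars of the group means of Nr4a1, Nr4a2 and Nr4a3 in CPM per kb of exon, from 0. Right, the share of each gene in that sum in percent, as mean ± SD of 3 libraries. Nr4a1 holds 74.1 to 79.1% in WT HSC, MPP1 and MPP2, and 53.6% in WT MPP4.

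The start regions of the Nr4a genes are shown because all 3 were called lower in the average over populations. That of Klf6, whose level followed Nr4a1 most closely among the members, is shown beside them. Sequences are the 250 bases before the gene start from RefSeq on GRCm38.p6, where 8 of the 9 members had an entry and Klf10 did not. They lie at chr15:101266596-101266845 on the plus strand for Nr4a1, chr2:57124004-57124253 on the minus strand for Nr4a2, chr4:48045055-48045304 on the plus strand for Nr4a3 and chr13:5861239-5861488 on the plus strand for Klf6. Each is written 5′ to 3′ toward the gene, and capitals mark the letters TGACG on either strand (read as CGTCA on the other), which form the core of a cAMP response element.
Nr4a1: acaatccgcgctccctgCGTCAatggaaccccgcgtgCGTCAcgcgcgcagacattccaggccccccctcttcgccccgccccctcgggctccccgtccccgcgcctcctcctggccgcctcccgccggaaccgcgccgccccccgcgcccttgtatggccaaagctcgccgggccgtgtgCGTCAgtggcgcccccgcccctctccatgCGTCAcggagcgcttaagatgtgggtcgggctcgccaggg
Nr4a2: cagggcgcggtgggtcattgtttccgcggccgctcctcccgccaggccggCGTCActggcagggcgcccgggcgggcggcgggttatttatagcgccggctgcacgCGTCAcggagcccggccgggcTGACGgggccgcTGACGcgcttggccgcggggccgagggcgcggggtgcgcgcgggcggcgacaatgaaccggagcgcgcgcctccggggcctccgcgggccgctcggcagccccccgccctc
Nr4a3: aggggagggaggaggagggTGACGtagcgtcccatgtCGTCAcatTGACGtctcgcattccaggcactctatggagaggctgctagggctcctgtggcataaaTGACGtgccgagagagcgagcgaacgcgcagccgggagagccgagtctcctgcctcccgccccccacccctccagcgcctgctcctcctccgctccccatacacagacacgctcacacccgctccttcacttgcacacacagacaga
Klf6: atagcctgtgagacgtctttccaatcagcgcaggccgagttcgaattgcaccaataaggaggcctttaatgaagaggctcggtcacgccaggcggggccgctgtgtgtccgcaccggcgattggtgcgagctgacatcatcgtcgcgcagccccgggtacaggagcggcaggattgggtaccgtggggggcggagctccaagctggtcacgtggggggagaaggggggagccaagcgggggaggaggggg
Each Nr4a window held 4 such sites. They began at positions -233, -213, -69 and -40 from the start in Nr4a1, at -200, -144, -123 and -111 in Nr4a2, and at -231, -213, -205 and -147 in Nr4a3. Of 32851 windows of the same length, 17.8% held at least 1 site and 0.137% held 4 or more, a limit set after the Nr4a windows had been seen. Klf2, Klf4 and Klf13 held 1 each, and Klf3 and Klf6 held 0, which says only that these letters are not in these windows. GGGCGG, the GC box that Klf and Sp proteins can bind, occurred in 8 of the 8 member windows, from 1 match in Klf6 and Nr4a3 to 6 in Klf3, against 32.7% of all windows. The member windows are also richer in G and C than the rest, at 63.6 to 80.0% against a mean of 53.2%, so letters such as these are met more often in them. The MEF2 box matched once in the windows of Klf2 and Nr4a2 (2.92% of all windows), and the CArG box bound by SRF in 0 of the 8 (1.47% of all windows). No binding was measured, and other start sites of these genes were not examined.

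Klf6 (ENSMUSG00000000078.8), a widely expressed growth-restraining factor that wounding and cytokines induce, fell in each population. WT HSC libraries had 57.9, 52.0 and 64.3 CPM and KO-labelled ones 23.3, 19.3 and 19.9 CPM. In MPP1 the levels were 66.7, 69.3 and 70.6 CPM against 26.4, 21.2 and 22.5 CPM. Libraries of a group lay close together, and the groups were well apart. MPP2-labelled cells had 60.2, 46.9 and 46.9 CPM in WT and 15.9, 20.3 and 12.4 CPM in KO-labelled libraries. MPP4-labelled cells had 37.7, 39.4 and 37.2 CPM against 10.9, 13.5 and 16.7 CPM. The fall on the log2 scale was 1.48 ± 0.26 in HSC (2.78-fold, adjusted p = 1.1e-05), 1.56 ± 0.25 in MPP1 (1.2e-05), 1.66 ± 0.26 in MPP2-labelled cells (1.3e-05) and 1.48 ± 0.26 in MPP4-labelled cells (5e-05). Background was expected to give 1.73 to 4.83% of its WT counts and 2.21 to 9.09% of its KO-labelled counts. All 4 calls held after subtraction, with log2 changes from -1.83 to -2.01. Leaving out any single library ended no call of Klf6 or of Nr4a1 between KO-labelled and WT cells.

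Klf2 (ENSMUSG00000055148.8), a factor that keeps T cells and endothelium quiescent, was close to the limit of detection. Its counts were 22, 12 and 10 in WT MPP2-labelled libraries and 0, 0 and 0 in KO-labelled ones. A count of 0 allows up to 3 counts in a library, here 1.08 CPM. The mean WT level of 4.50 ± 2.05 CPM was 4.15 times that limit. This ratio does not allow for the spread of the WT libraries, which stood at 6.86, 3.46 and 3.19 CPM. In MPP1 the counts were 12, 15 and 13 against 0, 3 and 0, with no overlap and no call by edgeR (adjusted p = 0.106). It was called there by limma-voom (0.0139), in a fit of only the libraries compared (0.0251) and without KO-labelled replicate 2 (0.0492). The KO-labelled libraries of both populations thus had 0 to 3 counts each, too few to give a level. HSC had 13, 10 and 7 counts in WT and 6, 7 and 0 in KO-labelled libraries, and MPP4-labelled cells had 6, 0 and 3 against 12, 1 and 0. Groups overlapped in both of these, and neither was called (adjusted p = 0.592 and 0.880). The call in MPP2-labelled cells (adjusted p = 0.021) was lost after subtraction (0.105) and without WT replicate 1 (0.0626) or any one of KO-labelled replicates 1 to 3 (0.0635 to 0.0693).

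Klf4 (ENSMUSG00000003032.9), which promotes monocyte maturation and is known as a reprogramming factor, was also at few counts. WT libraries had 13, 36 and 8 counts in HSC, 17, 12 and 16 in MPP1, and 9, 8 and 20 in MPP2-labelled cells. The KO-labelled libraries had 4, 3 and 6, then 7, 1 and 7, then 2, 0 and 2 counts in the same order. The groups did not overlap in these 3 populations, but no single population was called (adjusted p from 0.158 to 0.433). In MPP4-labelled cells the counts were 0, 2 and 7 in WT and 1, 1 and 0 in KO-labelled libraries, both below the background expected for them. The average over populations fell by 2.05 ± 0.60 on the log2 scale (adjusted p = 0.0042), and by 3.03 after subtraction (adjusted p = 0.0116). The average of Klf2 fell by 2.73 ± 0.77 (adjusted p = 0.0033). Both averages include groups at or near 0 counts and so give no exact size.

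Klf3, Klf10 and Klf13 were the members with no call between KO-labelled and WT cells as deposited. Klf3 (ENSMUSG00000029178.15), a repressor that recruits CtBP, had 36.9 to 89.9 CPM over the WT libraries and 35.5 to 80.2 over the KO-labelled ones, and its log2 changes ran from -0.19 to -0.03. Klf13 (ENSMUSG00000052040.11), a regulator of late T-cell activation genes, had 87.3 to 135 CPM in WT and 83.2 to 177 in KO-labelled libraries. Neither gene was called, with averages over the populations of -0.09 ± 0.10 for Klf3 and 0.10 ± 0.08 for Klf13 (adjusted p = 0.471 and 0.280). In MPP2-labelled cells neither gene's groups overlapped. Klf3 was at 85.2, 83.2 and 89.9 CPM in WT and lower, 72.9, 80.2 and 73.5, in KO-labelled libraries, without a call (adjusted p = 0.645). Klf13 was at 134, 118 and 132 CPM in WT and higher, 155, 164 and 177, in KO-labelled cells, also without a call (adjusted p = 0.159). Klf10 (ENSMUSG00000037465.11), which TGF-β induces, spread widely among KO-labelled libraries, for example 44.3, 22.0 and 36.3 CPM in HSC against 23.3, 23.6 and 23.97 in WT. The average log2 change of Klf10 was 0.33 ± 0.20 (adjusted p = 0.158). Subtraction takes more from WT than from KO-labelled libraries and moved the averages to -0.39 for Klf3 (adjusted p = 0.0038, called), 0.04 for Klf10 and -0.21 for Klf13 (0.0890). The direction for Klf13 thus depends on the scaling, and median-of-ratios size factors gave -0.01. The median change of all tested genes in HSC was -0.31 on the main scale and -0.46 with those size factors.

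**Figure D4:**
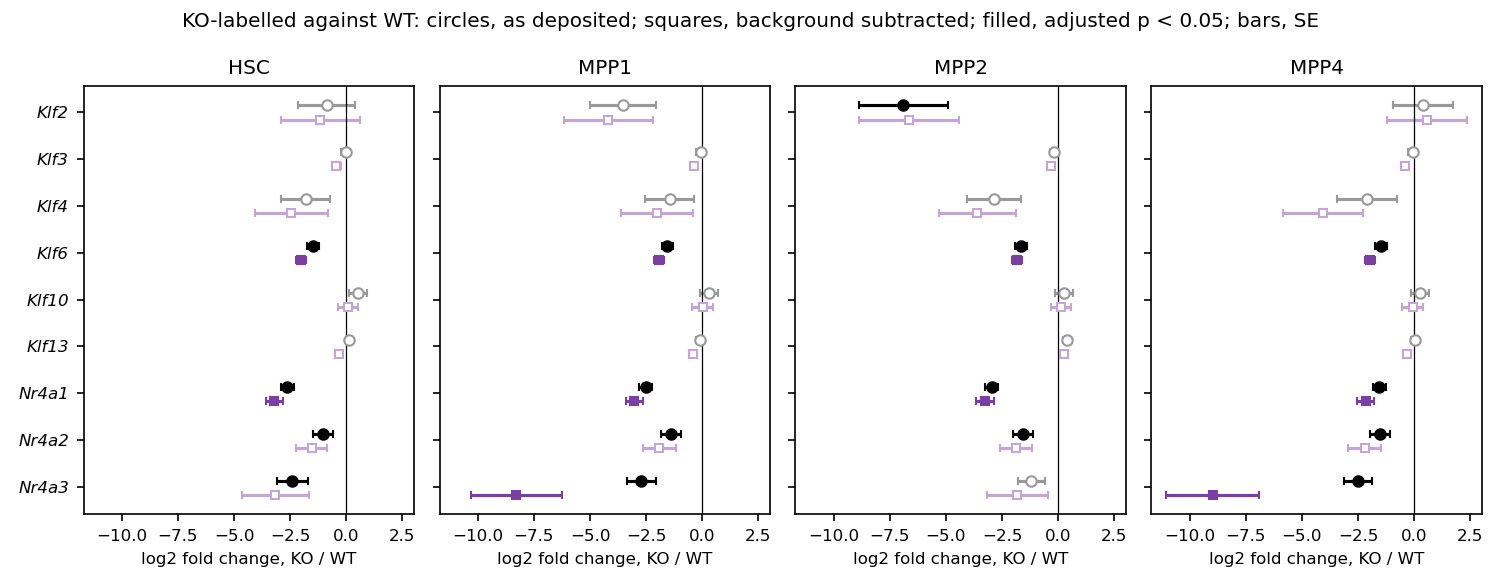
Log2 fold change of KO-labelled against WT (horizontal axis, the same in the 4 panels) with SE for the 9 genes in each labelled population; circles are the counts as deposited, squares are after background subtraction, and filled symbols have an adjusted p below 0.05. Klf6 and Nr4a1 are filled in both forms in all 4 panels. The fits of Klf2 in MPP1 and MPP2, of Klf4 in MPP2 and MPP4 and of Nr4a3 after subtraction in MPP1 and MPP4 are against groups at or near 0 and give no size.

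Whether the change differed between populations was asked with the interaction of genotype and population, in which 17.7% of all tested genes were called. Of the 9 members, 0 were called by edgeR, DESeq2 or limma-voom, and 2 had an unadjusted p below 0.05 in edgeR. The smallest adjusted p was that of Nr4a1 (0.0682), with log2 changes of -1.54 in MPP4-labelled cells and -2.52 to -2.97 in the others, followed by Klf2 (0.0858). The interaction of Nr4a1 passed the threshold without WT replicate 1 (adjusted p = 0.0212) or KO-labelled replicate 1 (0.0184) of MPP4, or KO-labelled replicate 2 (0.0457) or 3 (0.0235) of HSC, and that of Klf2 without KO-labelled replicate 2 of MPP1 (0.0346) or replicate 3 of MPP4 (0.0456). For Klf6 the adjusted p was 0.974.

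Markers of other cells moved with genotype in places. In HSC the summed level of 7 monocyte and macrophage markers was 28.8 to 66.6 CPM in WT and 11.7 to 15.3 in KO-labelled libraries, where C1qa, C1qb and Ccr2 were at 0. The sum of 6 mature B cell markers was 116 to 144 CPM in WT HSC and 29.3 to 50.0 in KO-labelled HSC, with Cd79a at 0 in the latter and Ms4a1 in both. The sum of 8 endothelial and stromal markers was 228 to 249 CPM against 138 to 173, and Cxcl12 was at 0 in KO-labelled HSC. In MPP1 the sum of 7 megakaryocyte and erythroid markers was 411 to 436 CPM in WT and 69.3 to 87.9 in KO-labelled libraries, and that of 5 granulocyte-monocyte progenitor markers 146 to 176 against 16.05 to 24.6. In MPP2-labelled cells the B cell sum was 199.5 to 230 against 81.7 to 122 CPM and the endothelial and stromal sum 217 to 255 against 118 to 133, while the monocyte and macrophage sum was higher in KO-labelled libraries, 255 to 334 against 114 to 143. In MPP4-labelled cells the B cell sum was 189 to 236 against 74.0 to 117 CPM, and the endothelial and stromal sum 212 to 233 against 123 to 154. The megakaryocyte and erythroid sum there was 632 to 699 against 303 to 380 CPM. Other sums were higher in KO-labelled libraries, whose values come first below. The sum of 8 HSC markers in HSC was 10077 to 10365 against 5161 to 5246 CPM, though Procr and Fgd5 were lower. That of 6 lymphoid-primed markers was 949 to 1006 against 464 to 531 CPM in MPP1. In MPP2-labelled cells it was 9230 to 9773 against 2571 to 2828 CPM. There Ighm was higher (8155 to 8630 against 862 to 996 CPM), and Flt3 and Dntt were lower. The megakaryocyte and erythroid sum was 505 to 590 against 252 to 293 CPM in HSC, but its list was split. Vwf was at 414 to 475 against 153 to 180 CPM, and Gata1 was also higher. Car1 (4.11 to 4.88 against 20.6 to 28.8) and Hba-a1 (3.48 to 9.46 against 18.3 to 32.6) were lower. Granulocyte-monocyte progenitor markers stood at 350 to 400 against 119 to 131 CPM in MPP4-labelled cells. The sum of 5 mast cell and basophil markers was higher in each population, with 432 to 542 against 218 to 222 CPM in HSC. Prss34 of that list was at 0 in KO-labelled HSC. All these levels are from deposited counts, and background was expected to make up more of the WT counts in each population. The part of these cells in the lower Nr4a and Klf6 levels was not tested. In bulk libraries such as these, fewer cells of a type and less RNA per cell cannot be told apart.

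Among WT populations, Nr4a1 was lowest in MPP4-labelled cells and Klf3 was highest in MPP2-labelled cells. Between MPP1 and HSC, 0 of 9 members were called by edgeR (3.8% of all genes) or limma-voom, and 1, Klf3, had an unadjusted p below 0.05 and was called by DESeq2. These comparisons share WT groups with each other and with those against KO-labelled cells.

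Nr4a1 had group means of 117 ± 15.1 CPM in MPP2-labelled cells, 94.9 ± 8.72 in MPP1 and 94.9 ± 14.4 in HSC, neighbours that did not differ beyond their spread, and of 36.3 ± 12.6 in MPP4-labelled cells. It was lower in MPP4-labelled cells than in HSC (log2 change -1.39 ± 0.28, adjusted p = 0.00034), MPP1 (-1.39 ± 0.28, 0.00058) and MPP2-labelled cells (-1.69 ± 0.28, 7.5e-06). Against HSC it was the only member called, against 10.3% of all genes. Klf6 ran from 68.9 ± 1.94 CPM in MPP1 through 58.1 ± 6.15 in HSC and 51.3 ± 7.69 in MPP2-labelled cells to 38.1 ± 1.15 in MPP4-labelled cells. No 2 neighbours in that order passed the test, and the ends did by edgeR (log2 change -0.85 ± 0.25, adjusted p = 0.024), so MPP4-labelled against MPP1 cells gave 2 called members, against 6.37% of all genes. That call of Klf6 was lost without any one of the 6 libraries compared (adjusted p from 0.0694 to 0.0893) and after subtraction (0.0533). Klf6 was also called lower in MPP2-labelled than in MPP1 cells by DESeq2 (0.0435), by limma-voom (0.0329), in a fit of only the libraries compared (0.0292) and after subtraction (0.0261), but not by edgeR on the deposited counts of all libraries (log2 change -0.42 ± 0.24, 0.268).

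Klf3 was at 86.1 ± 3.44 CPM in WT MPP2-labelled cells, 57.9 ± 4.94 in MPP1, 47.3 ± 4.08 in MPP4-labelled cells and 40.4 ± 3.73 in HSC. It was higher in MPP2-labelled cells than in HSC by 1.09 ± 0.20 on the log2 scale (adjusted p = 4.8e-05), the 1 member called in a comparison that called 19.1% of all genes. Against MPP1 the difference was 0.57 ± 0.20 (adjusted p = 0.039), again 1 member, with 15.6% of all genes called. This call was lost after subtraction (0.548) and without any one of the 6 libraries compared (0.0644 to 0.148). MPP4-labelled cells were lower than MPP2-labelled cells in Klf3 (log2 change -0.87 ± 0.20, adjusted p = 0.00075) and Nr4a1, 2 members where 27.3% of all genes were called, and the call of Klf3 was lost after subtraction (adjusted p = 0.146). KO-labelled cells had the same order of Klf3 means, 75.5 ± 4.05, 54.8 ± 10.1, 45.5 ± 7.47 and 39.6 ± 4.55 CPM, and those of MPP2-labelled libraries lay above all others.

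The remaining members had flat or unresolved orders in WT. Klf13 means ran from 103 ± 17.8 CPM in HSC to 128 ± 8.29 in MPP2-labelled cells, and Klf10 means from 13.5 ± 4.66 in MPP4-labelled cells to 23.6 ± 0.364 in HSC. Nr4a2 was highest in HSC (30.9 ± 5.57 CPM) and lowest in MPP1 (18.9 ± 1.52), whereas Nr4a3 was highest in MPP4-labelled cells (22.6 ± 9.69) and lowest in HSC (10.2 ± 4.66). Klf2 means ran from 0.939 ± 0.900 to 4.50 ± 2.05 CPM and Klf4 means from 0.980 ± 1.25 to 5.15 ± 3.87 CPM, both lowest in MPP4-labelled cells. No pair of populations was called in edgeR for any of these 6 genes. Per kb of exon, Nr4a1 (27.0 CPM per kb), Klf13 (13.6) and Klf6 (13.2) were the most abundant members in WT HSC, and Klf2 (1.49), Klf4 (1.69) and Nr4a3 (1.71) the least.

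Other genes of the pathways were taken from 6 lists. Among immediate early genes, 14 of 16 tested fell in the average over populations and 0 rose, against 30.3% of all genes called lower, with a median log2 change of -1.80 against -0.22 for all genes. By population, edgeR called 13 lower in HSC (24.8% of all genes), 12 in MPP2-labelled cells (4.17%), 10 in MPP1 (4.9%) and 7 in MPP4-labelled cells (6.47%). In MPP4-labelled cells DESeq2 called 12 lower and limma-voom 6. DESeq2 and limma-voom called 0 rises in these comparisons, and none had an unadjusted p below 0.05 in edgeR. Egr1, a zinc-finger factor of growth signals, fell by 3.06 ± 0.09 on the log2 scale on average (adjusted p = 2.3e-27), and Jun, a part of AP-1, by 3.09 ± 0.15 (5.8e-21). Fos, the AP-1 partner of Jun, fell by 2.55 ± 0.15 (8.1e-18) and its relative Fosb by 1.66 ± 0.07 (1e-23). The count stayed at 14 after subtraction, with a median of -2.23.

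Genes of the signalling routes that feed the Nr4a genes were more often called higher than lower in the deposited counts. Of 22 genes of the cAMP-CREB, calcium-NFAT and SRF routes, 18 were called higher and 2 lower on average (median 0.42), where 22.9% of all genes were called higher and 30.3% lower. After subtraction these counts were 5 and 3, against 9.38% of all genes higher and 14.6% lower. Srf, the factor that drives Fos and Egr1 through CArG boxes, was 1.07 ± 0.13 higher (adjusted p = 2.6e-09), its partner Elk4 0.66 ± 0.05 higher (1.6e-13), and the coactivator Ep300 0.51 ± 0.05 higher (1.2e-10). Nfatc2, a calcium-regulated factor, fell by 0.69 ± 0.07 (3.6e-11). All 4 calls held after subtraction, the smallest being Ep300 at 0.19 (adjusted p = 0.0149). Of 12 genes of the MEK5-ERK5-MEF2 route, known to drive Klf2, Klf4 and Nr4a1, 6 were called higher and 2 lower (median 0.14), or 3 and 3 after subtraction. Mapk7, which encodes ERK5, was 1.19 ± 0.20 higher (adjusted p = 5e-06), its kinase Map2k5 0.51 ± 0.05 (1.6e-11) and the MEF2 factor Mef2d 0.78 ± 0.05 (5.5e-18). In MPP2-labelled cells Mapk7 (0.41, adjusted p = 0.611), Map2k5 (0.07, 0.745) and Ep300 (0.08, 0.744) were not called, nor was Mapk7 in MPP1 (0.90, 0.141). Hdac9, a repressor of MEF2, averaged -0.37 ± 0.05 (3.2e-08) but was 0.39 higher in HSC (adjusted p = 0.0012) and lower in the other 3 populations.

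In the rest of the Klf and Sp family, 15 of 20 genes were tested, and 3 were called higher and 2 lower on average, with a median log2 change of -0.18. These counts are near or below the shares of all genes, 22.9% higher and 30.3% lower. Klf9, a glucocorticoid-responsive factor, was 1.04 ± 0.11 higher (adjusted p = 4.5e-10), Sp1 0.64 ± 0.06 (2.7e-12) and Sp3 0.47 ± 0.08 (2.6e-06), and Klf12, a repressor close to Klf3, fell by 0.69 ± 0.06 (8.5e-13). Sp3 was not called after subtraction (0.18, adjusted p = 0.0659), and in MPP2-labelled cells neither Sp1 (0.16, 0.475) nor Sp3 (0.03, 0.947) was called, nor was Sp3 in MPP1 (0.43, 0.0517). Among 13 tested cofactors and ubiquitin ligases, 8 were called higher and 1 lower (median 0.46), or 4 and 2 after subtraction. Corepressor parts among those called were Ncor1 (0.64 ± 0.04, adjusted p = 8e-17), Sin3a (0.64 ± 0.09, 2.3e-07) and Sin3b (0.58 ± 0.09, 5.1e-07), all higher in KO-labelled cells on average and none called in MPP2-labelled cells (log2 changes of 0.25, 0.05 and 0.23). Sin3a was also not called in MPP1 (0.50, 0.0654). Of 10 genes reported elsewhere as targets of the members, 3 were called higher and 1 lower (median 0.30). S1pr1, a Klf2 target that guides cells into blood, fell by 1.81 ± 0.34 (adjusted p = 2.6e-05). Cebpa, a myeloid factor, was 2.09 ± 0.46 higher (0.00021) and Smad7, an inhibitor of TGF-β signalling, 0.74 ± 0.17 higher (0.00034). These 3 calls on the average held after subtraction. By population, Smad7 was called in HSC (0.88, adjusted p = 0.0331) and MPP1 (2.14, 8.6e-06) and stood at -0.58 in MPP2-labelled cells (0.326), Cebpa was called in HSC, and S1pr1 in MPP1 and MPP2-labelled cells.

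Over the 24 libraries, the genes most like each member were found by Pearson's r of log2 CPM among 10515 genes averaging at least 10 CPM. These values describe libraries that share groups and depth. For Nr4a1 they were Fos (r = 0.913), Pde4b (0.912), which encodes a cAMP-degrading enzyme, and Klf6 (0.902). For Klf6 they were Zfhx3 (0.919), Nr4a1 (0.902) and Syne2 (0.882), and for Nr4a2 Khdrbs3 (0.849), Egr1 (0.812) and Fosb (0.800). Immediate early genes thus stood among the first 3 for Nr4a1, for Nr4a2 and also for Klf2, with Dusp1 (0.802) and Egr1 (0.751) beside Ptprv (0.781). Nr4a3 was most like the globin genes Hba-a2 (0.852) and Hbb-bs (0.840) and the calcium channel gene Cacna1s (0.843), and Klf4 was most like Nkx2-3 (0.851), Dennd1c (0.797) and Zbtb10 (0.794). Klf3 was most like Akna (0.913), Il10rb (0.912) and Emb (0.889). For Klf10 the genes were Ppp1r9a (0.734), Flywch1 (0.733) and Tmem29 (0.726), and for Klf13 Ighv4-1 (0.771), Nup93 (0.767) and F13a1 (0.759). Among the members themselves, r was 0.742 for Nr4a1 with Nr4a2, 0.716 for Nr4a1 with Nr4a3 and 0.514 for Nr4a2 with Nr4a3. It was 0.770 for Klf6 with Nr4a2 and 0.709 for Klf4 with Klf6, while Klf10 had r from -0.26 to 0.14 with the others.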

How the data were processed

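The authors deposited 1 table of raw counts, whole reads per gene with no normalization, as its values show. The submitters' processing notes name the build mm39 and the tools SAMtools 1.12 and DESeq2 without stating their roles. The aligner, counter, annotation and strand setting are not given in the sources used here. The labels' protocols name miRNeasy Micro extraction and an NEBNext Ultra II library. Columns were matched by the description field.

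Counts were scaled by the trimmed mean of M-values and filtered by filterByExpr, and 21964 genes were fitted in 1 quasi-likelihood model of 8 group means (edgeR 4.0.16, R 4.3.3; 16 residual df, common coefficient of variation between libraries 0.393). There were 12 comparisons: genotype within each population, the average of these, the interaction, and 6 pairs of WT populations. P-values were adjusted by Benjamini-Hochberg over all genes tested, and a gene was called below 0.05. The SE is the absolute log2 change over the square root of F. For background, counts of 1737 receptor genes per kb of gene span (GENCODE M21, GRCm38, matched by Ensembl ID for 91.9% of the table) gave an expected count per gene. This was taken off, and 18805 genes were fitted again. Whether the deposited counts include intronic reads was not examined. The floor is 3 counts per library; limits and errors cover counting or library spread only.

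Alternatives were no filter, scaling by median-of-ratios size factors, limma-voom 3.58.1 with sample weights, DESeq2 1.42.0, a minimum of 5 CPM in 3 libraries, only the libraries compared, a replicate block, background subtraction and each library left out. The code was tested on simulated data. Members and lists were chosen with earlier results of these data known. By rule, named genes were the 9 members, up to 4 genes per list with the smallest p in the average among those called in at least 1 population, and the 3 genes most like each member with a mean of at least 10 CPM, predicted genes passed over. List counts include a few named-rule genes whose values are not reported here. Promoter windows are RefSeq's, on GRCm38.p6.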

Additional observations from a re-analysis of the deposited data

How the results depend on the processing

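The 6 falls averaged over the populations, and the calls of Nr4a1 and Klf6 in each of the 4 populations, kept direction and call under every alternative run, except that Klf2 was not tested with a minimum of 5 CPM in 3 libraries (5 of 8 members called there). No called direction reversed. After background subtraction the members called were 2 in HSC and 2 in MPP2-labelled cells (4 each as deposited), 1 for WT MPP4 against MPP1 and 1 for WT MPP4 against MPP2 (2 each as deposited). For WT MPP2 against MPP1 (1 as deposited), the count was 0 with median-of-ratios size factors and 0 with no filter, and it was 2 with only the libraries compared, 2 with limma-voom and 2 with DESeq2. The member added in those 3 was Klf6, and after subtraction the 1 called was Klf6 in place of Klf3. For WT MPP4 against MPP1 it was 1 with median-of-ratios size factors and 1 with no filter. DESeq2 called 1 member for WT MPP1 against HSC (0 in edgeR). The interaction had 1 called member, Nr4a1, with no filter (adjusted p = 0.0107). With 1 library left out, the counts were 3 to 4 in HSC, MPP1 and MPP4, 2 to 3 in MPP2, 6 to 6 in the average, 0 to 1 in the interaction, 0 to 0 for WT MPP2 against MPP1 and 1 to 1 for WT MPP4 against MPP1. The causes were not tested. Over all genes, calls in HSC went from 9462 to 1681 with subtraction, in MPP1 from 2988 to 1101, in MPP2 from 1735 to 862, in MPP4 from 3926 to 1296, in the average from 11689 to 4500 and in the interaction from 3881 to 1124. Of the calls in WT MPP2 against HSC 4195 became 1934, in MPP2 against MPP1 3422 became 1060, and in MPP4 against MPP2 5987 became 1860. With median-of-ratios size factors, the split of calls in HSC went from 4012 higher and 5450 lower to 2990 and 5848, and in MPP4 from 2506 and 1420 to 1521 and 1927. Same-numbered WT and KO-labelled libraries of a population did not deviate together (r from -0.0059 to 0.0197), which gives no sign that the numbers pair them. Whether same-numbered libraries of different populations come from the same animal was not examined. The main fits of the average and the interaction treat all 24 libraries as independent. With the replicate number as a block, Nr4a2 in HSC was not called (adjusted p = 0.0502), and the interaction had 1 called member, Nr4a1 (0.0488). Depth limits Klf2 and Klf4, which had at most 22 and 36 counts in any library.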
